A study of Mus musculus with 2 samples.

Results

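The 7 genes Snai1, Snai2, Twist1, Twist2, Zeb1, Zeb2 and Prrx1 encode transcription factors of the epithelial-mesenchymal transition (EMT), and Cdh2 is one of its marker genes. All 8 were taken by gene name from a deposited table of 54680 loci. They were chosen by the log2 ratios of their FPKM between the 2 libraries, with Snai1 and Snai2 picked for their opposite signs and Cdh2 as a mesenchymal marker. The values below therefore describe these genes and test nothing about them.

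EMT is the program by which epithelial cells loosen their junctions and take on a migratory, mesenchymal state. It is driven by a small set of transcription factors. Snail, Slug (encoded by Snai2) and the Zeb proteins are zinc finger proteins that bind E-box sequences and repress epithelial genes such as Cdh1, which encodes E-cadherin. Twist proteins are basic helix-loop-helix factors that pair with E proteins, and Prrx1 encodes a homeobox factor of mesenchyme. Cdh2 encodes N-cadherin, which mesenchymal cells commonly carry in place of E-cadherin.

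Expression was measured by RNA sequencing of total RNA from CT26, a colon cancer line of the mouse. The labels give 2 groups. Knockdown cells (CT26shSetdb1) were infected with lentivirus carrying a short hairpin RNA against Setdb1, the gene of a histone methyltransferase that helps silence genes. Control cells (CT26shCtrl) received the same kind of virus with the empty knockdown vector, and are labelled wild type. How many hairpin sequences were used is not stated. Both were collected after 6 days, in culture medium with serum, and the labels call the knockdown cells differentiated. Each group had 1 library, so no difference below has a replicate check, and every value describes a library, not a condition.

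The deposited values gave back whole read numbers, 18421604 for the control library and 19045830 for the knockdown library, and mitochondrial genes took 1.01% and 0.557% of them. Setdb1 was at 10.4 FPKM (1340 reads) in control cells and at 2.47 FPKM (317 reads) in knockdown cells, lower in the library labelled knockdown. Its gene model overlaps Cers2. Markers of colon epithelium were mostly missing: Cdh1, Epcam, Cdx1 and Lgr5 had 0 reads in both libraries, and 2 of the 10 markers, Krt18 and Krt20, reached 1 FPKM. The summed level of the 10 markers was 43.2 FPKM in control cells and 126 FPKM in knockdown cells. Of 7 fibroblast markers 5 reached 1 FPKM, with a summed level of 189 and 136 FPKM, and Lum had 0 reads. Of 6 leukocyte markers only Cd68 did, at 10.4 and 100.2 FPKM, while Ptprc had 0 and 4 reads and the other 4 had none. No endothelial marker of 4 did, with 1 read in all. The part of these markers in the results below was not tested. As these are bulk samples, fewer cells with a transcript and less of it per cell cannot be told apart.

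The promoters of the members that were higher in knockdown cells show what lies just before their start sites. The sequences come from RefSeq on GRCm38.p6, are written 5′ to 3′ on the strand of the gene, and cover the 250 bases before the annotated start. Of the 8 members, 5 had entries, and Snai2, Zeb1 and Cdh2 had none. In the Snai1 sequence (chr2:167537945-167538194, plus strand) capitals mark the E-box that Snail-type zinc finger proteins bind. In the Twist1 (chr12:33957421-33957670, plus strand) and Twist2 (chr1:91801211-91801460, plus strand) sequences capitals mark GC boxes, the motif of SP factors.
Snai1: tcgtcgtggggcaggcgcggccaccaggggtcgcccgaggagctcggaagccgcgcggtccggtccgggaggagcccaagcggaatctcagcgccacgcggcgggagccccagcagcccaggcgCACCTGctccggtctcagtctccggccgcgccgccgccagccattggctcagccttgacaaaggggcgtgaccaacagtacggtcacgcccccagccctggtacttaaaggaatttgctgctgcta
Twist1: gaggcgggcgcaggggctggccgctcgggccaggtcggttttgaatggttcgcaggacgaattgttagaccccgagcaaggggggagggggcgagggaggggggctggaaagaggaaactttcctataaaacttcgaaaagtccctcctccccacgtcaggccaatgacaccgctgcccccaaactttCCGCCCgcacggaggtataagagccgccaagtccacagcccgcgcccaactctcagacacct
Twist2: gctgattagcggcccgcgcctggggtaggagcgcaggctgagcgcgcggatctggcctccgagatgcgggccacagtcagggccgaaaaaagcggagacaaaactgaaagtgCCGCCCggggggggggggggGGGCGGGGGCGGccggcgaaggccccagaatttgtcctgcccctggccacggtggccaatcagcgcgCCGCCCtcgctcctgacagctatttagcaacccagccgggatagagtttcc
The Snail-type E-box, CAGGTG or CACCTG on the other strand, occurred 1 time in the Snai1 sequence, starting 126 bases before the start site. It was in none of the other 7 entries of the members, 1 each for Twist1, Twist2 and Prrx1 and 4 for Zeb2. Of 32851 promoters in the table, 17.2% held it within the same length. No further E-box (CANNTG, which includes the Snail-type form) was found in these entries, against 66.2% of all promoters. The GC box, GGGCGG or CCGCCC, occurred 4 times in the Twist2 sequence and 1 time in the Twist1 sequence, and 32.7% of all promoters held at least 1. The core of the hypoxia response element (ACGTG or GCGTG, and CACGT or CACGC on the other strand) occurred 3 times in the Snai1 sequence, 1 time in that of Twist1 and 0 times in that of Twist2, against 38.6% of promoters with at least 1. Both the GC box and the hypoxia core also occurred in some of the 4 entries of Zeb2, which was lower in knockdown cells. Neither occurred in the entry of Prrx1. A match is a string of letters, and no binding was measured here.

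Levels are given in FPKM, which counts fragments per length of gene, here divided by 1 depth common to both libraries, with a 95% exact Poisson interval. Differences are given as log2 ratios of (FPKM + 1), knockdown against control; this scale shrinks the changes of low genes. Read ratios compare each gene's share of its own library's reads, with 95% exact binomial (Clopper-Pearson) intervals. All these intervals cover counting error only, since reads copied by PCR are not independent molecules. A gene counted as higher or lower at a 2-fold difference on this log2 scale. A low gene can therefore differ by 2-fold in FPKM and not be counted. All 8 members reached 1 FPKM in at least 1 library. Zeb2 did so in control cells only, so that its log2 ratio had to be below 0.

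Snai1 and Snai2 had overlapping counting intervals in control cells and lay far apart in knockdown cells. Snai1, which encodes Snail (ENSMUSG00000042821, chromosome 2, 167538195 to 167542814, plus strand), was at 8.37 FPKM (7.37 to 9.46, 254 reads) in control cells and at 20.3 FPKM (18.7 to 22.0, 617 reads) in knockdown cells. The knockdown library was the high one, by 2.43-fold in FPKM and with a log2 ratio of 1.19. Its read ratio was 2.35, with an interval of 2.03 to 2.73. With the trends of GC content and length over all genes removed, its log2 ratio was 0.93, under 2-fold.

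Snai2, which encodes Slug (ENSMUSG00000022676, chromosome 16, 14705852 to 14709385, plus strand), was at 9.59 FPKM (8.63 to 10.6, 363 reads) in control cells and at 1.66 FPKM (1.28 to 2.13, 63 reads) in knockdown cells. Here the knockdown library was the low one, at 17.4% of the control level, with a log2 ratio of -1.99. The read ratio of Snai2 was 0.168, with an interval of 0.126 to 0.220. With a pseudocount of 0.1 the log2 ratio was -2.46.

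Snai3, the third gene of the family, had 0 reads in control cells and 1 in knockdown cells. Within the summed FPKM of the 3 genes, Snai1 made up 46.6% in control cells and 92.3% in knockdown cells. Over Snai1 and Snai2 alone the share of Snai1 was 46.6% (42.5 to 50.7) and 92.4% (90.4 to 94.1), with exact binomial intervals. The pair was picked for its opposite signs, so this share describes that choice in another form. The level of Snai1 was 0.872 of that of Snai2 in control cells and 12.2 times that of Snai2 in knockdown cells. The summed level differed much less than either gene, from 18.0 to 22.0 FPKM, or 1.23-fold. As the pair was picked for opposite signs, the ratio of their sum had to lie between their own ratios.

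**Figure D1:**
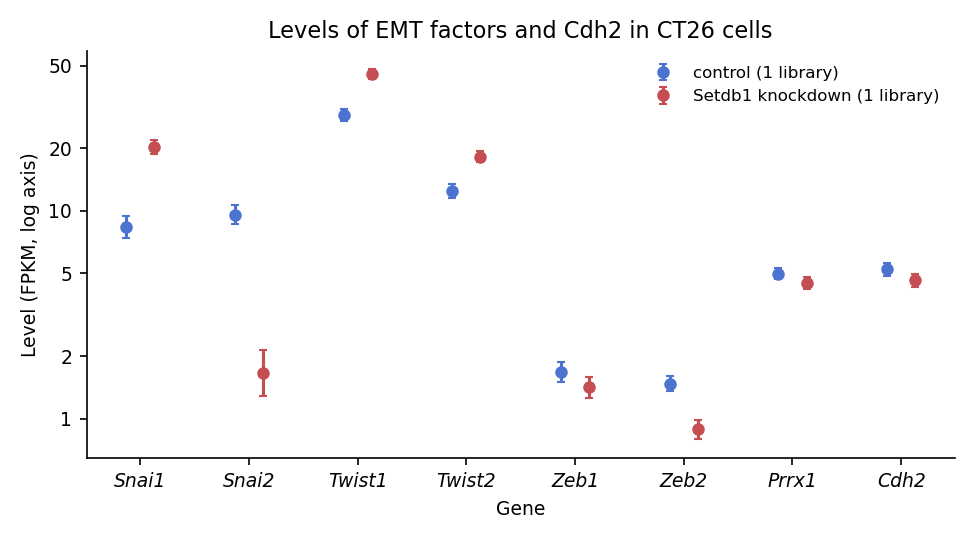
Level of each gene in FPKM on a log axis, with 1 point per library (blue, control; red, Setdb1 knockdown) and bars for the 95% Poisson counting interval. Snai1 is higher and Snai2 lower in knockdown cells, from nearly equal control levels of 8.37 and 9.59 FPKM.

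Both Twist genes, which encode basic helix-loop-helix factors of mesoderm and mesenchyme, were higher in knockdown cells without reaching 2-fold. Twist1 (ENSMUSG00000035799, chromosome 12, 33957671 to 33959829, plus strand) was at 29.1 FPKM (27.2 to 31.0, 886 reads) in control cells and 45.5 FPKM (43.2 to 48.0, 1388 reads) in knockdown cells. Its log2 ratio was 0.63 and its read ratio 1.52 (1.39 to 1.65). It had the highest level of the 8 genes in both libraries.

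Twist2 (ENSMUSG00000007805, chromosome 1, 91801461 to 91848028, plus strand) was at 12.5 FPKM (11.6 to 13.4, 741 reads) in control cells and 18.2 FPKM (17.1 to 19.3, 1081 reads) in knockdown cells. Its log2 ratio was 0.51 and its read ratio 1.41 (1.28 to 1.55). The antisense locus Gm29100 shares 45.7% of the 50-base windows of Twist2 transcripts, and had 66 reads in control cells and 65 in knockdown cells. Whether counting used strand is not given in the sources used here, so reads of the 2 loci cannot be told apart with certainty. The share of Twist1 in the pair stayed close, at 70.0% (67.9 to 72.0) and 71.5% (69.8 to 73.1), and these intervals overlap.

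The Zeb genes, which encode zinc finger and homeobox repressors of epithelial genes, were the lowest of the set, level with Snai2 in knockdown cells for Zeb1. Zeb1 (ENSMUSG00000024238, chromosome 18, 5591860 to 5775467, plus strand) was at 1.68 FPKM (1.51 to 1.88, 324 reads) in control cells and 1.41 FPKM (1.25 to 1.59, 272 reads) in knockdown cells, which gives -0.15 as log2 ratio. The 2 Poisson intervals overlap, while the read ratio of 0.812 had an interval of 0.689 to 0.957.

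Zeb2 (ENSMUSG00000026872, chromosome 2, 44983632 to 45117395, minus strand) was at 1.48 FPKM (1.35 to 1.60, 551 reads) in control cells and 0.889 FPKM (0.796 to 0.990, 332 reads) in knockdown cells. The knockdown library was at 60.3% of the control level, with a log2 ratio of -0.39, or -0.67 with a pseudocount of 0.1. The read ratio was 0.583 (0.507 to 0.669). The antisense gene Zeb2os, which overlaps Zeb2, had 13 reads in each library.

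Prrx1, a homeobox factor of limb and craniofacial mesenchyme (ENSMUSG00000026586, chromosome 1, 163245119 to 163313710, minus strand), was at 4.99 FPKM (4.69 to 5.30, 1034 reads) in control cells and 4.48 FPKM (4.20 to 4.78, 929 reads) in knockdown cells. These levels lie close together, with -0.13 as log2 ratio and 0.869 as read ratio (0.794 to 0.950). Its relative Prrx2 was far higher, at 49.5 and 48.7 FPKM, so that Prrx1 made up 9.16% and 8.42% of the summed level of the pair.

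Cdh2, the mesenchymal cadherin (ENSMUSG00000024304, chromosome 18, 16588877 to 16809246, minus strand), was at 5.24 FPKM (4.88 to 5.61, 791 reads) in control cells and 4.63 FPKM (4.29 to 4.98, 699 reads) in knockdown cells. Its log2 ratio was -0.15, with a read ratio of 0.855 (0.771 to 0.947). Neither library held any read of Cdh1. At the length of Cdh1, 3 reads, the limit that a count of 0 allows, correspond to 0.0350 FPKM, so its level was below that in both.

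In all, 1 of the 8 genes (Snai1) was at least 2-fold higher in knockdown cells and 1 (Snai2) at least 2-fold lower. With the trends of GC and length removed, Snai1 was at 0.93 and no member was at least 2-fold higher. Of 10671 genes at 1 FPKM or more, 6.81% were higher and 4.85% lower by this rule, together 11.7%. Because the genes were picked with this contrast in view, nothing is read from their count. The interval of the read ratio excluded 1 for all 8 members, 3 above and 5 below. It did so for 75.8% of all genes, 35.2% above and 40.6% below. The median log2 ratio of the 8 was -0.14, and that of all genes was -0.00039.

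**Figure D2:**
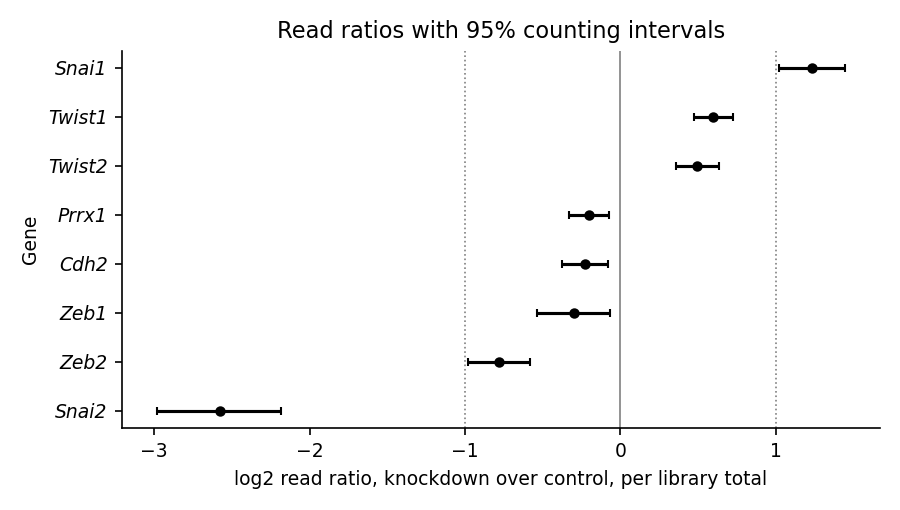
log2 read ratio of each gene, knockdown over control, relative to its library's total (points), with 95% binomial counting intervals (bars), a solid line at 0 and dotted lines at 2-fold. All 8 intervals lie off 0, and only those of Snai1 (2.03 to 2.73 as a ratio) and Snai2 (0.126 to 0.220) lie wholly beyond 2-fold.

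The order of the members differed between the libraries mainly through the Snail pair. In the control library it ran Twist1, Twist2, Snai2, Snai1, Cdh2, Prrx1, Zeb1 and Zeb2. Counting intervals overlapped between the neighbours Snai2 and Snai1, Cdh2 and Prrx1, and Zeb1 and Zeb2. In the knockdown library it ran Twist1, Snai1, Twist2, Cdh2, Prrx1, Snai2, Zeb1 and Zeb2, and intervals overlapped between Snai1 and Twist2, Cdh2 and Prrx1, and Snai2 and Zeb1. Among all genes at 1 FPKM or more, Snai1 was at percentile 53.2 of the control library and 72.3 of the knockdown library, and Snai2 went the other way, from 56.5 to 16.1. Twist1 was 19.7 times the level of Zeb2 in control cells and 51.2 times in knockdown cells.

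**Figure D3:**
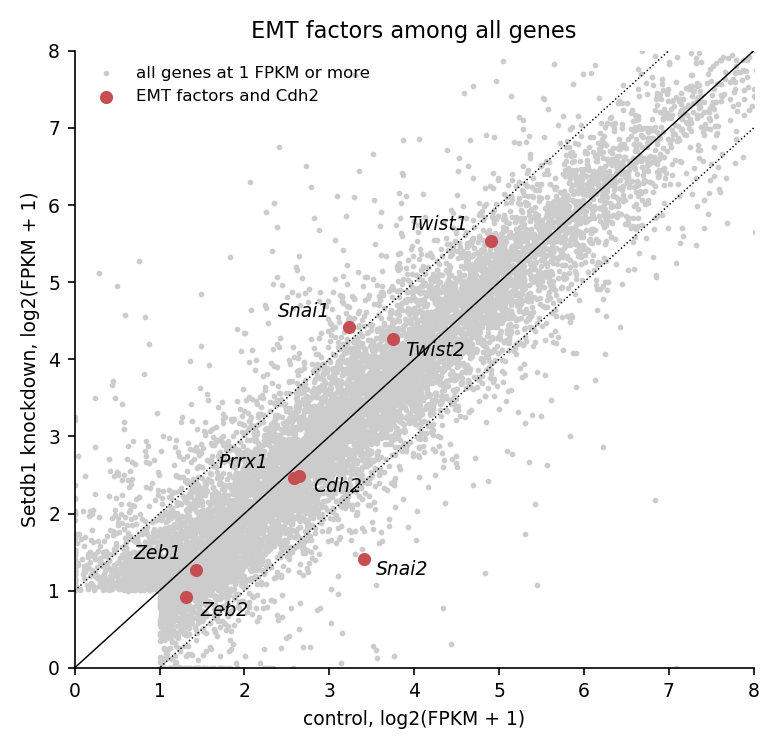
log2(FPKM + 1) in control cells (x axis) and in knockdown cells (y axis) for 10671 genes at 1 FPKM or more (grey) and for the 8 genes (red). The solid line marks equal levels and the dotted lines 2-fold, both axes end at 8 so that higher genes are not drawn, and Snai2 lies well below the lower dotted line while Snai1 lies just above the upper one.

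Base composition moved with the ratios over all genes and has to be read beside those of the members. Split into 5 equal groups by GC content of the longest transcript, genes had a median log2 ratio of -0.18 in the group of lowest GC and 0.20 in that of highest GC. Snai1 (59.8% GC) and Twist1 (59.3%) belonged to the highest group, and Twist2 (52.6%) to the next lower. Snai2 (42.6%), Zeb2 (40.6%) and Prrx1 (43.6%) belonged to the lowest, Zeb1 (46.1%) to the next and Cdh2 (49.5%) to the middle group. With this trend and that of gene length subtracted by lowess, a correction chosen after the values were seen, Snai2 stayed at -1.83 while Snai1 came to 0.93, just under 2-fold. Twist1 came to 0.38, Twist2 to 0.43 and Cdh2 to -0.11. Zeb1 at 0.04, Zeb2 at 0.0048 and Prrx1 at 0.13 were no longer below 0. The part of base composition in each single ratio was not tested.

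Genes next to the members were mostly below 1 FPKM. Of the 16 nearest protein-coding genes, 1 on each side of each member, 6 reached 1 FPKM, and 1 of these was past 2-fold. That gene was Hdac4, a histone deacetylase gene 80.8 kb beyond Twist2, at 7.47 FPKM in control cells and 2.08 FPKM in knockdown cells (log2 ratio -1.46), the opposite sign to Twist2. On the other side of Twist2, Asb1 had a log2 ratio of 0.67. Rnf114, a ubiquitin ligase gene 22.0 kb before Snai1, was at 30.0 and 56.1 FPKM (0.88), while Ube2v1 on the other side had 16 and 28 reads. Both neighbours of Snai2, A630010A05Rik and Efcab1, were silent or nearly so, with 0 reads and with 0 and 1. The other neighbours at 1 FPKM were Gorab beside Prrx1 (0.49), Gm10036 beside Cdh2 (0.28) and Zfp438 beside Zeb1 (-0.42). Zfp438 reached 1 FPKM in control cells only, so that its ratio had to be below 0. The remaining ones, Ferd3l and Hdac9 beside Twist1, Arhgap12 beside Zeb1, Gtdc1 and Acvr2a beside Zeb2, Mroh9 beside Prrx1 and Dsc3 beside Cdh2, had at most 112 reads in a library.

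Likeness of pattern rests on 2 libraries only, as the distance between genes in log2(FPKM + 1) of both. The 3 protein-coding genes nearest to Snai1 were Alas1 (distance 0.0158, 8.30 and 20.5 FPKM), Prkar1b (0.0833) and Ticam1 (0.0842). For Snai2 they were Dgat2 (0.126, 9.44 and 1.90 FPKM), Fam198b (0.127) and Adh7 (0.271).

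Other transcription factors known to drive EMT were mostly silent or within 2-fold on the log2 scale of (FPKM + 1). Of 14 such genes, 8 reached 1 FPKM, 1 was at least 2-fold higher and 0 were lower, with a median log2 ratio of 0.25 that is 0 over all 14. The 1 was Sox9, a factor of neural crest, cartilage and gut stem cells, at 6.21 and 14.3 FPKM (1.09). The lowest ratio was that of the forkhead gene Foxc1, at 3.46 and 1.66 FPKM (-0.74). Without the pseudocount Foxc1 was at 48.0% of control, and Foxc2 was 2.20-fold higher, at 1.08 and 2.37 FPKM. Prrx2 had the highest control level. Of the rest, 5 genes of the list had no read in either library.

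Among genes around the Twist proteins, the ID genes had larger ratios than the Twist genes. No E protein gene was past 2-fold on the log2 scale of (FPKM + 1). E proteins dimerise with Twist proteins, and ID proteins, which lack a DNA-binding region, hold E proteins in inactive pairs. Of 7 such genes 6 reached 1 FPKM, 3 of them at least 2-fold higher and 0 lower, with a median of 0.96 over 3 ratios above 0 and 3 below. That median depends on the filter, at 0 over all 7 genes and 2.25 over those at 5 FPKM or more. Id1 was at 10.5 FPKM in control cells and 65.8 FPKM in knockdown cells (log2 ratio 2.53), Id2 at 7.40 and 31.8 FPKM (1.97) and Id3 at 4.23 and 32.6 FPKM (2.68). Id4 had no read. The E protein gene Tcf3 was level at 39.2 and 38.0 FPKM (-0.04), and Tcf12 had the lowest ratio, from 2.29 to 1.08 FPKM (-0.66). Without the pseudocount Tcf12 was at 47.3% of control. Tcf4, at 1.24 and 0.667 FPKM, passed the filter through control cells only, so that its ratio had to be below 0. Summed FPKM of the Twist genes was 41.5 and 63.7, that of the 3 E protein genes 42.7 and 39.8, and that of the ID genes 22.2 and 130. Per unit of Twist RNA there was 0.534 of ID RNA in control cells and 2.04 in knockdown cells.

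Factors that oppose EMT and hold the epithelial state were almost all silent. Of 16 such genes, 13 stayed under 1 FPKM, with 31 reads in all in control cells and 46 in knockdown cells, and 7 had no read in either. The other 3 were all within 2-fold and below 0, with a median of -0.44 that is 0 over all 16. Klf4, a zinc finger factor of gut epithelium, had the highest control level and the lowest ratio, at 38.8 and 21.6 FPKM (-0.82). The pioneer factor gene Foxa1 was nearest to its control level, at 3.56 and 2.73 FPKM (-0.29).

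Corepressors and chromatin enzymes that Snail or Zeb proteins recruit were all present. All 13 reached 1 FPKM. On the log2 scale of (FPKM + 1), 0 were at least 2-fold higher and 1 was lower, with a median of -0.0080. The 1 was Ajuba, a LIM protein that binds Snail, at 74.0 FPKM in control cells and 26.4 FPKM in knockdown cells (-1.45). The Zeb corepressor genes went apart, Ctbp1 at 99.8 and 71.6 FPKM (-0.47) and Ctbp2 at 3.39 and 6.85 FPKM (0.84). Ctbp1 had the highest control level and Ctbp2 the highest ratio of the list. Without the pseudocount Ctbp2 was 2.02-fold higher, and Suz12, at 4.09 and 2.04 FPKM, was at 49.9% of control.

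Snail protein is short-lived, and enzymes that mark or protect it were read as a further list of 18 genes. Of these 15 reached 1 FPKM, 1 at least 2-fold higher and 1 lower, with a median of 0.12. The lower one was Gsk3b, whose kinase marks Snail for destruction, at 6.46 and 2.68 FPKM (-1.02), just past 2-fold. The higher one was Pak1, a kinase that phosphorylates Snail, at 4.62 and 10.8 FPKM (1.07). The ubiquitin ligase gene Btrc was also 2.12-fold higher in FPKM, at 2.05 and 4.34, but not past 2-fold on the log2 scale (0.81). Ctdsp1, a phosphatase gene with the highest control level of the list, was at 131 and 91.4 FPKM (-0.51). Usp27x, at 0.774 and 1.46 FPKM, passed the filter through knockdown cells only, so that its ratio had to be above 0. Protein was not measured.

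Genes of the TGF-beta branch, a main inducer of EMT, went in both directions. Of 17 genes 15 reached 1 FPKM, 1 at least 2-fold higher and 1 lower. The median was -0.06 and the mean 0.02, which differ in sign and both lie near 0. The higher gene was that of the ligand, Tgfb1, which was at 14.2 FPKM in control cells and 38.2 FPKM in knockdown cells (1.37). The lower one was Ctgf, a standard target that encodes a secreted matrix protein, at 21.2 and 9.22 FPKM (-1.12). In FPKM alone the inhibitor gene Skil was lower still, at 1.54 and 0.589 FPKM, or 38.4% of control against 43.4% for Ctgf. Skil passed the filter through control cells only, so that its ratio had to be below 0. The ubiquitin ligase gene Smurf1 had the highest control level, at 41.4 against 67.5 FPKM (0.69).

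Junction and epithelial genes, many of them known to be repressed by Snail, Zeb or Twist proteins, were mostly silent in both libraries. Of 26 genes, 19 stayed under 1 FPKM, with 42 reads in all in control cells and 41 in knockdown cells, and 12 had no read in either. Of the 7 at 1 FPKM or more, 3 were at least 2-fold higher and 0 lower, with a median of 0.96 that is 0 over all 26. Krt19 and Pkp3 passed the filter through knockdown cells only, so that their ratios had to be above 0, and the median is that of Pkp3. Pkp3 was 2.95-fold higher in FPKM, at 0.945 and 2.79. Jup, which encodes the junction protein plakoglobin, was at 7.86 and 27.2 FPKM (1.67). The keratin gene Krt18 was at 37.7 and 90.0 FPKM (1.23). For Krt19, 1 read in control cells stood against 53 in knockdown cells, at least 17.1-fold higher when 3 reads per library are taken as the floor. Tjp1, a tight junction scaffold, had the lowest ratio, at 12.1 and 10.1 FPKM (-0.24).

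Mesenchymal genes other than Cdh2 ranged from silent to very high. Of 26 genes 16 reached 1 FPKM, 2 at least 2-fold higher and 0 lower, with a median of 0.28 that is 0.09 over all 26. Pdgfra and Mmp3 passed this filter through knockdown cells only, and Col3a1 through control cells only. Vim, the mesenchymal intermediate filament, was at 752 FPKM in control cells and 835 FPKM in knockdown cells (0.15). Itga5, which encodes a subunit of the fibronectin receptor, was at 35.1 and 112 FPKM (1.65), and the membrane protease gene Mmp14 at 19.1 and 39.4 FPKM (1.01), at the edge of 2-fold. The lowest ratio was that of the collagen gene Col3a1, at 2.68 and 0.887 FPKM (-0.96). Without the pseudocount Col3a1 was at 33.1% of control, while Pdgfra was 3.54-fold and Mmp3 2.92-fold higher.

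**Figure D4:**
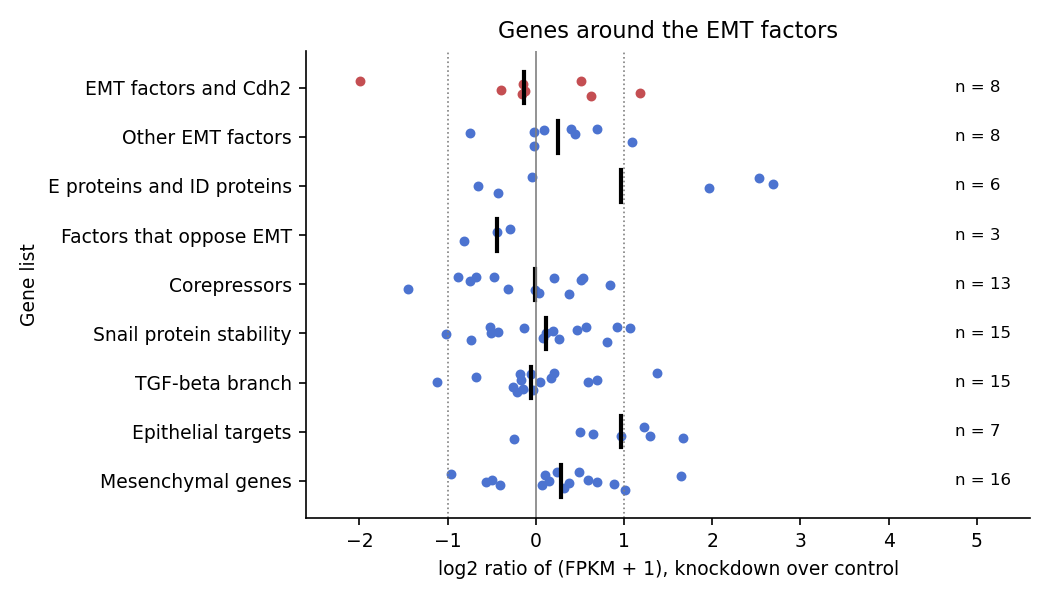
log2 ratio of (FPKM + 1), knockdown over control, for each gene at 1 FPKM or more (points) in the set of 8 (red) and in 8 related lists (blue), with the number of genes at the right, medians as black bars and dotted lines at 2-fold. The 8 genes spread on both sides of 0, from -1.99 for Snai2 to 1.19 for Snai1, and the 3 ID genes lie above them, from 1.97 to 2.68.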

How the data were processed

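RNA was measured in 1 library of each group, and each column was tied to its sample through the library name its label gives. The authors deposited FPKM values. CASAVA, HISAT2, featureCounts 1.5.0-p3 and the build GRCm38 are named in the submitters' processing notes, with no settings or order. All 8 members lay where GENCODE M21 on GRCm38 places them. FPKM times gene length came out as whole reads (within 0.001) for 100% of values above 0, with 1 common depth of 18731117 for both libraries, so FPKM still carries the 1.03 ratio of their totals.

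Ratios used a pseudocount of 1, and a gene entered the counts if either library had it at 1 FPKM or more. No test was run, since a group was a single library. The members and lists were chosen with earlier results of these data known, and 1 gene of the TGF-beta list is not reported here and was left out of its counts. Named genes were Setdb1, the members, their nearest protein-coding neighbours, the 3 genes nearest in pattern to Snai1 and to Snai2, and from each list the highest and lowest ratio, genes past 2-fold and the highest control level. Some genes past 2-fold in FPKM alone, or past the filter in 1 library only, were named as well. GC content came from the longest GENCODE transcript and was had for 98.5% of genes (lowess span 0.3). The counting intervals and calls were run on simulated reads with Poisson counting error only, so the coverage of the intervals follows from that setting. Of 200 simulated 4-fold changes, 181 were called with the right sign, and 21 unchanged genes were called. PCR copies and differences between replicate libraries were not simulated. Alternatives were a pseudocount of 0.1, 4 scalings, CPM, other filters and folds, and the GC correction. Intervals came from scipy 1.17.1, the lowess fit from statsmodels 0.14.6, tables from pandas 2.3.3 with numpy 2.4.6, and plots from matplotlib 3.10.9, all under Python 3.11.15. Isoforms and protein were not analysed here.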

Additional observations from a re-analysis of the deposited data

How the results depend on the processing

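The correction for GC content and gene length used transcript sequences and took this form after seeing the data. Of 40 alternative values for the member counts, the Snai1 and Snai2 ratios and the Snai1 share, 33 differed from the reported value by less than its counting interval, or kept the count, 7 moved and 0 reversed. The GC and length correction left 0 members at least 2-fold higher, with Snai1 at 0.93. A 1.5-fold threshold gave 2 higher members, Twist1 being the second, and a 4-fold threshold 0 higher and 0 lower. Snai2 just missed 4-fold at -1.99 with the pseudocount of 1, though its FPKM in knockdown cells was 17.4% of control. With a pseudocount of 0.1 Snai2 was at -2.46, since a smaller pseudocount weighs less on low values. In reads not divided by length, Snai1 made up 41.2% of the Snail family in the control library, as its gene model is shorter. Over all 7 settings Snai1 ranged from 0.93 to 1.27 and Snai2 from -2.46 to -1.83. The scalings moved the median of all genes by at most -0.0442 on the log2 scale. With a pseudocount of 0.1, 1134 genes in place of 727 were higher and 870 in place of 518 lower. A 1.5-fold threshold gave 1804 higher and 1523 lower genes, a 4-fold one 116 and 56. List medians changed sign for other EMT factors (-0.0219 at 5 FPKM), corepressors (0.0411 at 5 FPKM, 0.0691 after the correction) and the TGF-beta branch (0.0097 at 5 FPKM). Without a filter the median was 0 for other EMT factors, E and ID proteins, factors that oppose EMT and epithelial targets, and 0.09 for mesenchymal genes. At 5 FPKM it was 2.25 for E and ID proteins and -0.63 for factors that oppose EMT. The cause was not tested except where given.

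No paired analysis was possible because both arms were single libraries, and leaving out a library was impossible for the same reason. Depth limits Snai2, which rests on 63 reads in the knockdown library, and the epithelial genes with few or no reads.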

Other observations

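The authors' table assigns transcription factors to families, which places the members among their kind. These genes were looked at after their values were seen, and those named outside the lists were chosen then. Of all 601 transcription factor genes at 1 FPKM or more, 40 were at least 2-fold higher and 22 lower. Over all genes these shares were 6.81% and 4.85%. Among 192 zinc finger genes of the C2H2 class, 10 were at least 2-fold higher in the knockdown library and 5 lower. The counts by family were not tested. Snai2, a gene picked by this ratio, had the lowest log2 ratio of (FPKM + 1) of the 192. In FPKM alone Gm13230 was lower, at 16.7% of control against 17.4% for Snai2. Snai1 had the rank of 7 from the top in ratio, and went from rank 44 to rank 11 in level. The immediate-early gene Egr2 was the highest of the class in log2 ratio, at 0.424 and 4.78 FPKM (2.02). In FPKM alone Prdm1 (16.25-fold) and Gli1 (15.9-fold) differed by more than Egr2 (11.3-fold). Egr2, Prdm1 and Gli1 passed the filter through knockdown cells only, so that their ratios had to be above 0. Gm13230 passed it through control cells only. Zeb1 was at rank 115 and Zeb2 at rank 146 in ratio.

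Among 30 basic helix-loop-helix genes, 8 were at least 2-fold higher and 1 lower, with a median of 0.26. Besides the 3 ID genes, the higher ones were Bhlhe40 (23.7 and 89.9 FPKM, 1.88), Bhlhe41 (1.14), Mxi1 (1.57), Mxd1 (1.29) and Mlxipl (1.21). Mlxipl, at 0.0771 and 1.49 FPKM, passed the filter through knockdown cells only, so that its ratio had to be above 0. The lower gene was Myc, at 86.5 and 30.4 FPKM (-1.48). Mxi1 and Mxd1 encode proteins that compete with Myc for its partner Max. Twist1 stood at rank 10 and Twist2 at rank 11 in ratio. Among 37 homeobox genes, 3 were higher and 2 lower, and Prrx1 was at rank 24. Hoxb9 had a log2 ratio of -2.10, from 300 to 33 reads. Hoxb9 and the other lower gene, Gbx1, passed the filter through control cells only.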
